A study of Mus musculus with 6 samples.

Results

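The cytosolic ribosomal protein genes were the protein-coding rows of the count table whose symbol named a protein of the small subunit (*Rps* genes and *Rpsa*) or of the large subunit (*Rpl* genes and *Rplp0* to *Rplp2*). This rule gave 83 of 54715 genes, 31 of the small and 52 of the large subunit, and all 83 passed the filter on low counts. The rule used the gene symbol and class only, not any measured value. It leaves out components of the same ribosome whose symbols differ, and of these *Rps3a1*, *Fau* and *Rack1* are given separately.

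The cells were advanced embryonic stem cells (ASCs), mouse pluripotent cells derived from a cross of a 129/sv female with a GOF/GFP male and grown in ABCL medium, which supplies activin A, BMP4, the GSK3 inhibitor CHIR99021 and LIF. RNA was sequenced from 3 samples of wild type (WT) ASCs and 3 samples of *Bdh2*-knockout (KO) ASCs kept in the same medium, and the comparison asks which RNAs differ when *Bdh2*, which encodes a 3-hydroxybutyrate dehydrogenase, is disrupted. The knockout was made with CRISPR/Cas9 and a pair of guides near the start codon, single colonies were expanded, and the ASCs carried forward were 1 line with the same deletion on both alleles, so line and genotype cannot be told apart. Nothing in the labels says that the 3 samples of a genotype came from separate cultures, and the p-values then measure only the spread between these samples, which may be technical.

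Ribosomes are assembled from ribosomal RNA and one copy of most ribosomal proteins. The small subunit reads the mRNA and the large subunit joins the amino acids. The mRNAs of ribosomal proteins are abundant and short, and most begin with a C followed by a run of pyrimidines, the terminal oligopyrimidine (TOP) motif, through which the mTORC1 kinase governs their translation. A few proteins have a paralog encoded by a second gene, often used in a particular tissue such as testis, heart or muscle. Embryonic stem cells are known for high expression of genes for ribosome assembly.

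The libraries held 18927748 to 28333541 counts on genes, so that 3 counts corresponded to 0.106 to 0.158 CPM (counts scaled to library size). *Bdh2* had 203, 193 and 209 counts in WT samples 1 to 3 and 164, 136 and 129 counts in KO samples 1 to 3, and its normalized level in KO ASCs was 57.7% of that in WT ASCs (log2 fold change -0.79 ± 0.12 SE, adjusted p = 0.000246). The 13 pluripotency markers together held 8410 to 8524 CPM in every library. This sum and the marker sums that follow are scaled to library totals, without the TMM factors used for the calls. These factors were 1.014 to 1.027 in WT and 0.9735 to 0.9864 in KO libraries. With them the KO sum of the 13 markers lies above the WT sum. Of the 13 markers 8 were called higher and 1 lower in KO ASCs (3 and 4 with offsets along abundance). *Pou5f1* was at 0.17 and *Dppa5a*, the most abundant, at -0.19 on the log2 scale. All 9 primitive endoderm markers rose, from sums of 124.7 to 130.2 CPM in WT ASCs to 372 to 424 CPM in KO ASCs. Markers of hepatocytes, cells that the labels do not name, were present in unequal amounts, and all 16 were measured above 0 in the mean of both genotypes. Their sum was 528, 324 and 51.1 CPM in WT ASCs and 40.6, 150 and 29.2 CPM in KO ASCs, the groups overlapped, and edgeR called 13 of the 16 lower in KO ASCs, while DESeq2 and limma-voom called 0, and edgeR with 1 sample left out called 0 to 16. The part of the marker transcripts in the following results was not tested beyond the fit that takes their level as a covariate, which is given beside the counts of both subunits and of some lists. In that fit 12 of the 34 called members stayed called.

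Ribosomal protein transcripts took up a smaller share of the RNA in *Bdh2*-KO ASCs. The small subunit genes held 4.03%, 4.03% and 3.74% of all counts in WT ASC samples 1 to 3 and 3.58%, 3.31% and 3.32% in KO ASC samples 1 to 3. The large subunit genes held 5.14%, 5.10% and 4.86% in WT ASCs and 4.62%, 4.372% and 4.399% in KO ASCs. In both subunits each KO sample lay below each WT sample, WT sample 3 was the lowest of its group and KO sample 1 the highest. WT sample 3 was also the WT sample with the fewest hepatocyte transcripts, while KO sample 1 was not at either end of its group in these. The means were 3.93% ± 0.169 (SD, n = 3) against 3.40% ± 0.149 for the small subunit, and 5.03% ± 0.149 against 4.46% ± 0.136 for the large subunit, so that KO ASCs held 86.6% and 88.7% of the WT share. A two-sided exact permutation test gave p = 0.1 for both, the smallest p that 3 against 3 samples allow. Per length the difference had the same direction, since all 83 genes held 15.8% ± 0.265 of the summed TPM (counts scaled to gene length and library size) in WT ASCs and 14.4% ± 0.471 in KO ASCs. The share is relative to all other RNA in the library, and less RNA of these genes per cell cannot be told apart from more RNA of others.

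**Figure D1:**
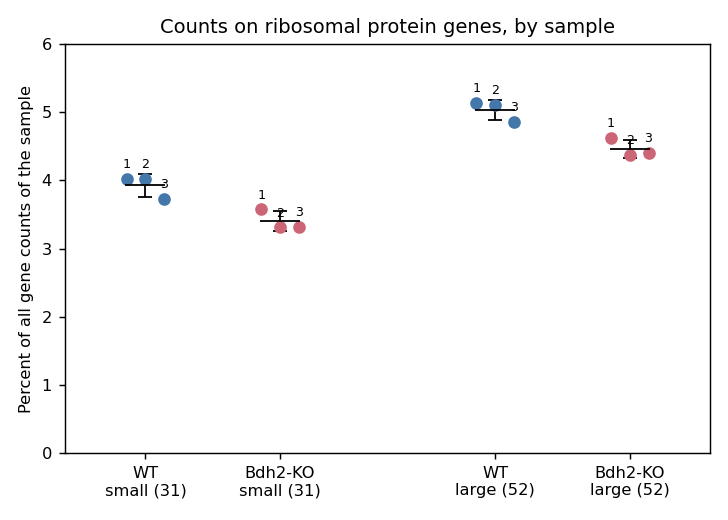
Percent of all gene counts of a sample that fell on the 31 small subunit genes and the 52 large subunit genes. Points are samples, numbered by replicate, and the bars give the mean ± SD of 3 samples. All KO samples lie below all WT samples in both subunits, with KO sample 1 nearest to WT sample 3.

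Gene by gene, the decrease was small and spread over many proteins. Tested with edgeR over 16758 genes, 13 of 31 small subunit genes fell in KO ASCs and 0 rose, and 20 of 52 large subunit genes fell while 1 (*Rpl10l*) rose. These are 41.9% and 38.5% of the members in the direction of a decrease, beside 20.8% of all tested genes, and 0% and 1.92% in the direction of an increase, beside 21.0% of all tested genes. The median log2 fold change was -0.14 in the small subunit and -0.12 in the large subunit, against -0.01 over all tested genes. Of the small subunit genes 26 of 31 had a fold change below 0, and of the large subunit genes 39 of 52. The 3 KO samples lay wholly below the 3 WT samples in 11 small and 20 large subunit genes, beside 26.1% of all tested genes, and wholly above them in 0 small and 2 large subunit genes (*Rpl10l* and *Rpl7l1*), beside 26.3%.

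Most of these changes were small enough to depend on the null value of the test. Set against a fold change of 1.2 instead of no change, edgeR called 0 of the 83 genes lower, beside 7.59% of all tested genes. *Rpl10l* was the only member called, beside 7.07% of all tested genes called higher. The called changes of the members also depended on scaling in size, though not in direction. With library totals in place of TMM factors, 22 small and 29 large subunit genes were called lower, beside 2731 of all tested genes called higher and 4451 called lower, in place of 3518 and 3478. With offsets along abundance 23 small (74.2%) and 33 large subunit genes (63.5%) were called lower, beside 20% of all tested genes. With the hepatocyte score as a covariate, 2 small (6.45%) and 10 large subunit genes (19.2%) were called lower, beside 2482 of all tested genes (14.8%), so that the small subunit lay below the share of all genes and the large subunit near it. The medians in that fit were -0.12 and -0.09. The small subunit count also rested on single libraries. It was 8 without WT sample 1 (25.8%, beside 16.9% of all genes tested in that fit), 6 without KO sample 2 (19.4%, beside 15.6%) and 5 without KO sample 3 (16.1%, beside 15.1%), and the last is near the share of all genes. Other abundant genes leaned the other way. Of 615 with a mean of 256 CPM or more, a bound chosen with the values known, 301 were called higher and 62 lower, and their median was 0.13.

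**Figure D2:**
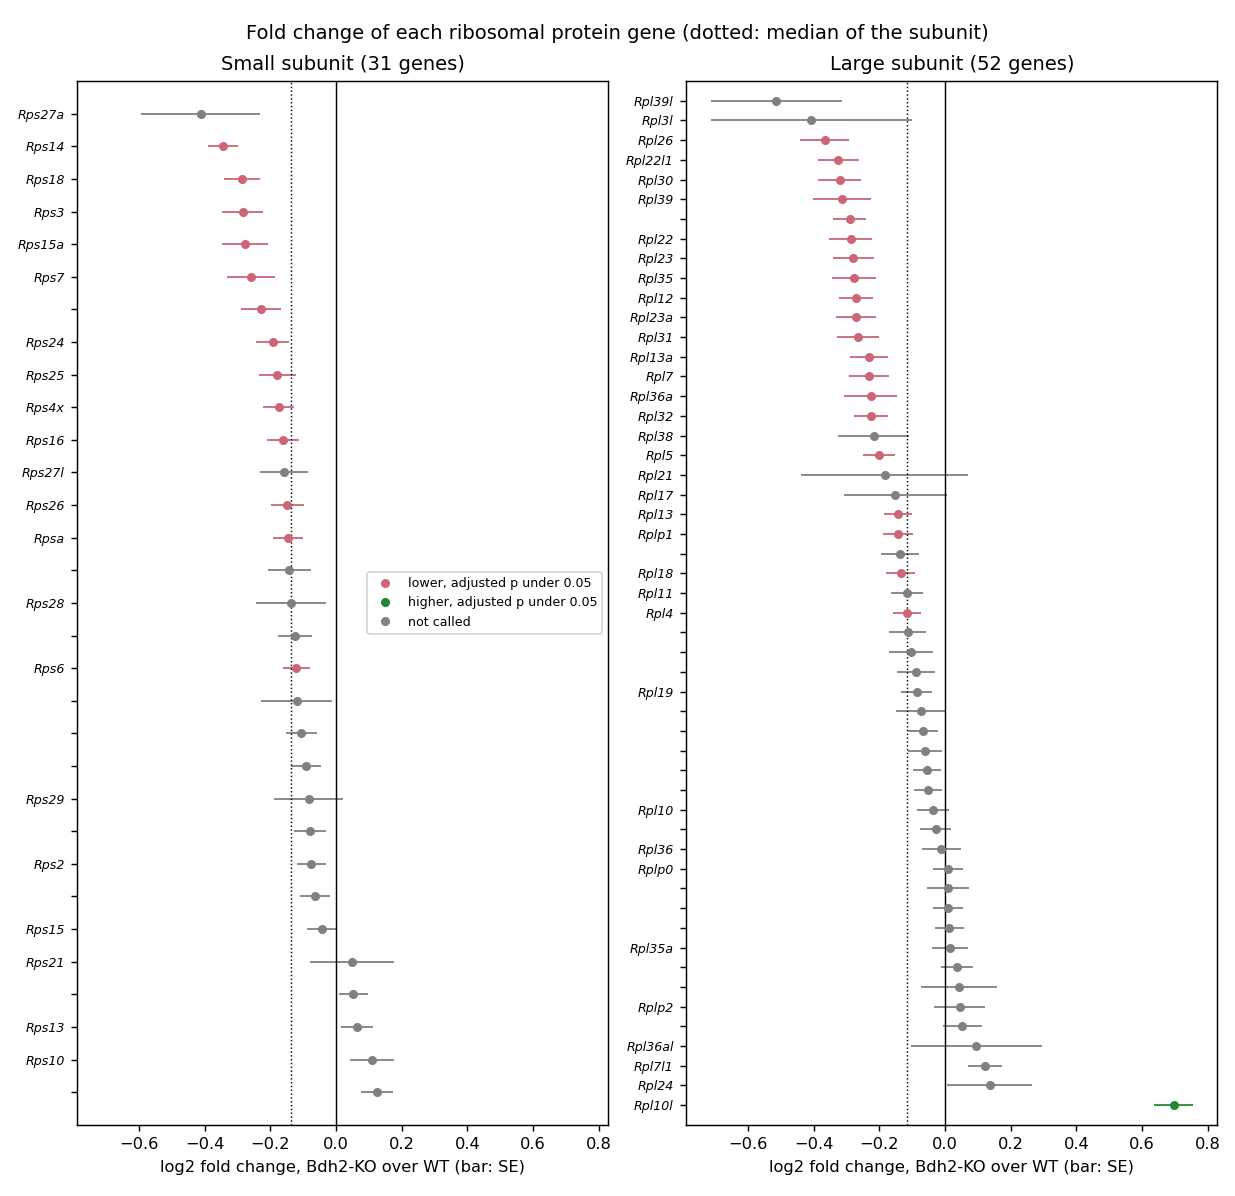
Log2 fold change of each ribosomal protein gene, KO over WT ASCs, with its SE, for the small subunit (left) and the large subunit (right). Colours mark genes called lower or higher at an adjusted p under 0.05 and genes not called, the dotted line is the median of the subunit, and names are given for genes described in the text. Most points lie to the left of 0, and *Rpl10l* stands apart at 0.70.

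In the small subunit the largest called decrease was that of *Rps14*, a protein of the subunit's platform. It was measured at 1704, 1741 and 1582 CPM in WT ASCs and at 1337, 1300 and 1320 CPM in KO ASCs. The groups were far apart relative to their spread (log2 fold change -0.35 ± 0.046 SE, adjusted p = 7.89e-05), and the change stayed between -0.44 and -0.29 over 20 alternative fits. It was called in 19 of them, all but the test against a fold change of 1.2.

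*Rps18*, a protein of the head of the small subunit, lay at 1784, 1901 and 1635 CPM in WT ASCs and at 1517, 1406 and 1441 CPM in KO ASCs. *Rps3*, which lines the mRNA entry channel, lay at 2751, 2825 and 2336 CPM against 2250, 2115 and 2133 CPM. Both fell without overlap, by 0.29 and by 0.28 on the log2 scale (adjusted p = 0.00118 and 0.00268). *Rps15a* fell by 0.28 (adjusted p = 0.00639), and WT sample 3 at 580.3 CPM lay close to KO sample 1 at 579.3 CPM. *Rps7*, needed for processing of the small subunit ribosomal RNA, fell by 0.26 (adjusted p = 0.0120), but WT sample 3 at 1076 CPM lay below KO sample 1 at 1095 CPM. Thus in all of these WT sample 3 was the lowest of the WT group.

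The small subunit gene with the lowest fold change, *Rps27a*, which makes a ribosomal protein fused to ubiquitin, did not pass the test (log2 fold change -0.41 ± 0.18 SE, adjusted p = 0.0814). Its values scattered within both genotypes, at 1175, 1299 and 755 CPM in WT ASCs and 1004, 824 and 596 CPM in KO ASCs. The other called small subunit genes fell by less. Among them were *Rps24* (-0.19), *Rps25* (-0.18), *Rps4x* (-0.17), *Rps16* (-0.16), *Rps26* (-0.15), *Rpsa* (-0.15), whose protein is also known as a laminin receptor, and *Rps6* (-0.12), the target of the S6 kinases, and in all of these but *Rps25* the genotypes did not overlap. Of 15 genes listed for the small subunit head, 6 fell (40%, beside 20.8% of all tested genes and 41.9% of the whole small subunit). In this list 0 rose, and its median was -0.14 on the log2 scale. The list holds *Rps2* and *Rpsa*, proteins of the subunit's body, and leaves out *Rps27a* of the head. *Rpsa* is among the 6, so these values do not describe the head alone. With the hepatocyte score as a covariate 1 of the 15 was called lower, beside 14.8% of all tested genes in that fit.

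In the large subunit *Rpl26* had the largest called decrease. It lies beside the exit tunnel, through which the growing protein leaves the ribosome, and was measured at 473, 528 and 408 CPM in WT ASCs and at 378, 349 and 365 CPM in KO ASCs (log2 fold change -0.37 ± 0.075 SE, adjusted p = 0.00174). *Rpl30* lay at 505, 547 and 442 CPM against 393, 404 and 398 CPM (-0.32, adjusted p = 0.00169). In both genes the KO samples sat close together and below all WT samples. *Rpl39*, a very small protein inside the exit tunnel, lay at 685, 729 and 631 CPM against 644.5, 519.9 and 479.5 CPM (-0.31, adjusted p = 0.0119), and KO sample 1 overlapped the WT range.

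The other called large subunit genes included *Rpl23* (log2 fold change -0.28, adjusted p = 0.00329) and *Rpl12* (-0.27, adjusted p = 0.00117), a protein at the base of the stalk. *Rpl13a*, which outside the ribosome takes part in silencing of inflammatory mRNAs, fell by 0.23, *Rpl36a* by 0.23, *Rpl32* by 0.23, *Rpl13* by 0.14 and *Rpl18* by 0.13. Of these the genotypes overlapped in *Rpl36a*. The genes that did not pass ranged from -0.51 (*Rpl39l*) to 0.14 (*Rpl24*).

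Proteins that line or surround the exit tunnel formed the list with the lowest median among the structural groups. Of 8 genes, 6 fell (75%, beside 20.8% of all tested genes), 0 rose and all 8 had a fold change below 0, with a median of -0.27. Besides *Rpl26* and *Rpl39* these were *Rpl35* (-0.28), *Rpl23a* (-0.27), *Rpl31* (-0.27) and *Rpl4* (-0.12). *Rpl17* (-0.15, adjusted p = 0.463) and *Rpl19* (-0.09, adjusted p = 0.160) did not pass. The exons of *Rpl35* and *Rpl23a* overlap other annotated genes over 66.2% and 62.3% of their length. The part of this overlap in their values was not tested. With the hepatocyte score as a covariate 2 of the 8 stayed called, beside 14.8% of all tested genes called lower in that fit, and the median of the list was -0.19. The lists by position in the ribosome were not tested against other members.

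The P stalk recruits the factors that drive elongation, and 1 of its 3 genes was called. *Rplp1* had the highest level per length of all members, with 13990 ± 375 TPM in WT ASCs and 12560 ± 304 in KO ASCs, and fell (log2 fold change -0.14, adjusted p = 0.0201). *Rplp0* (0.01, adjusted p = 0.901) and *Rplp2* (0.04, adjusted p = 0.673) did not pass the test, and the sign of both turns with library totals or abundance offsets in place of the scaling used here. *Rpl5* and *Rpl11* form a particle with a small ribosomal RNA and, outside the ribosome, can bind Mdm2, the regulator of p53. *Rpl5* fell, from 1713, 1776 and 1612 CPM in WT ASCs to 1536, 1425 and 1476 CPM in KO ASCs (-0.20, adjusted p = 0.00477), and *Rpl11* did not pass (-0.12, adjusted p = 0.0712). Of 19 members known as Diamond-Blackfan anaemia genes, in which loss of one copy causes a failure of red cell production, 10 fell (52.6%, beside 20.8% of all tested genes and 39.8% of all members) and 0 rose. With the hepatocyte score as a covariate 1 of the 19 was called lower, beside 14.8% of all tested genes in that fit.

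Levels per length spanned a wide range. After *Rplp1*, *Rpl36* and *Rplp0* were the highest in the large subunit, with 6394 and 5126 TPM in WT ASCs, and *Rps2* and *Rps15* in the small subunit, with 4937 and 4157 TPM in WT ASCs. The lowest in the large subunit were the paralogs *Rpl3l* (2.74 TPM in WT ASCs), *Rpl36al* (4.16) and *Rpl39l* (10.9), and in the small subunit *Rps10* (30.1), *Rps15a* (311) and *Rps13* (622). Some core proteins were among the low ones, such as *Rps10* and *Rpl24* (16.1 TPM). Their exons overlap other annotated genes over 28.7% and 47.0% of their length, and both share sequence with other genes. The part of either in these levels was not tested. In 40 of the 83 members more than 50% of the 50-base stretches of the main transcript occurred in transcripts of other genes. For *Rps10* the rows named as its pseudogenes held 1360% of its own counts, and adding them turned its log2 fold change from 0.11 (adjusted p = 0.202) to -0.18 (adjusted p = 0.0104). The rows named as pseudogenes of ribosomal proteins, 298 in all, held 0.485% ± 0.00975 of the counts in WT ASCs and 0.425% ± 0.0111 in KO ASCs, also a decrease.

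The only member that rose was *Rpl10l*, a paralog of *Rpl10* known from male germ cells, where it stands in for the X-linked parent gene. It is a gene without introns on the minus strand of chromosome 12 (66283379 to 66284401, GRCm38). It had 571, 520 and 720 counts in WT ASCs and 1243, 1260 and 1060 counts in KO ASCs, that is 29.4, 25.8 and 28.5 CPM against 45.1, 46.2 and 44.2 CPM. The 3 KO samples lay close together and far above the WT samples (log2 fold change 0.70 ± 0.060 SE, adjusted p = 2.18e-06). The change was called in all 20 alternative fits, at 0.64 to 0.77, and was 0.71 with the hepatocyte score as a covariate. *Rpl10* itself, on the X chromosome, did not pass the test (-0.04, adjusted p = 0.558), with 1318 to 1474 CPM in WT ASCs and 1337 to 1344 CPM in KO ASCs.

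The coding sequences of this pair are shown because reads can be told apart only where the genes differ. Both are 645 bases long and 84.8% identical, and they share 0 stretches of 50 bases. The first 90 bases, from GENCODE transcripts of GRCm38, differ at 13 positions, which are in capitals in the lines that follow.
Rpl10l: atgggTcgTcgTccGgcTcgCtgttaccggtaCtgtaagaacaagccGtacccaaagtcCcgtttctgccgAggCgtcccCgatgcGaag
Rpl10: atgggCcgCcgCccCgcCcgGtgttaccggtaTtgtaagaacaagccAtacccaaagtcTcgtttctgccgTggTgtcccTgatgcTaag

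Counts of *Rpl10l* were 1.995%, 1.954% and 2.129% of those of *Rpl10* in WT ASCs and 3.36%, 3.44% and 3.31% in KO ASCs. Among 8 such pairs, 2 others also did not overlap between the genotypes. *Rpl7l1* rose relative to *Rpl7* from 15.2%, 13.3% and 16.8% to 18.7%, 19.4% and 19.2%, as *Rpl7* fell (log2 fold change -0.23, adjusted p = 0.00845) and *Rpl7l1* stood at 0.12 (adjusted p = 0.0769). *Rps4l*, which the table classes as a transcribed processed pseudogene and which is therefore no member, went from 17.1%, 17.2% and 21.1% of *Rps4x* to 23.4%, 26.4% and 24.4%. *Rps4l* rose by itself (0.25, adjusted p = 0.00306) and *Rps4x* fell (-0.17, adjusted p = 0.0103). The two-sided exact permutation test gave p = 0.1 for each of these 3 pairs, its smallest value, and 0.267 after adjustment over the 8 pairs.

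The other pairs overlapped. *Rpl22l1*, whose parent gene *Rpl22* makes a protein that also binds RNA outside the ribosome, fell from 127.8, 126.6 and 109.9 CPM to 100.8, 95.0 and 94.8 CPM (log2 fold change -0.32, adjusted p = 0.00116). *Rpl22* fell with it (-0.29, adjusted p = 0.00356), and their ratio was 17.5% ± 0.931 in WT ASCs and 17.0% ± 0.304 in KO ASCs. *Rpl39l*, known from testis and stem cells, had the lowest fold change of all members (-0.51 ± 0.20 SE) at about 2 to 3 CPM, and missed the threshold (adjusted p = 0.0532). It lies on chromosome 16 with *Rpl24* and *Rpl35a*, where the median of all 494 tested genes was 0.19, and the part of that shift in their values was not tested. *Rpl3l*, a muscle form, *Rpl36al* and *Rps27l*, a target of p53, did not pass either (adjusted p = 0.304, 0.726 and 0.0967).

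**Figure D3:**
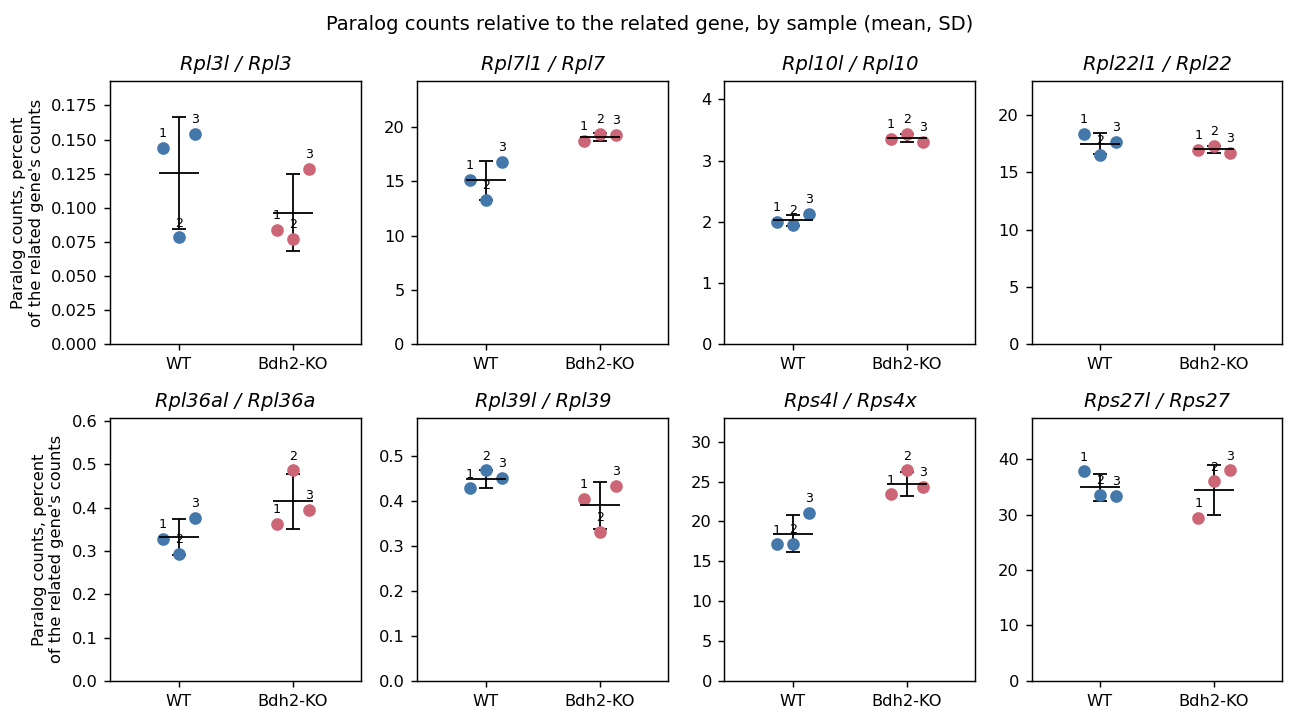
Counts of each paralog as a percent of the counts of its related gene, by sample, with the mean ± SD of 3 samples. Each panel has its own axis from 0. The ratios of *Rpl10l*, *Rpl7l1* and *Rps4l* are higher in all KO samples than in all WT samples, and the other 5 overlap.

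The start sites of called members are shown because the TOP motif is what these mRNAs are known for. RefSeq start windows were found for 63 of the 83 members. A run of at least 8 C or T letters on the transcribed strand, within 20 bases on either side of an annotated start, was present in 30 of the 63 (47.6%), and in 18.3% of 16434 other protein-coding genes with windows of the same length. The lines that follow give 20 bases before and 20 bases from the start (GRCm38.p6, 5′ to 3′ on the strand of the gene), with the longest pyrimidine run in capitals, or the first of equal runs. The first 3 are the called members with the largest decrease that had a run of this length, and the last 3 those without.
Rpl22l1: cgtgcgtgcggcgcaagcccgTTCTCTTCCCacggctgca
Rpl39: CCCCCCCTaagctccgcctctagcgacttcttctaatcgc
Rps18: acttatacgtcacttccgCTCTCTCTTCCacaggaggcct
Rpl26: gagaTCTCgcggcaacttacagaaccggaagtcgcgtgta
Rpl22: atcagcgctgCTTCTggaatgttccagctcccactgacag
Rps3: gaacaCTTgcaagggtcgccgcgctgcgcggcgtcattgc

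The window of *Rpl22l1* spans bases 28805488 to 28805527 of chromosome 3 on the plus strand, and its run of 10 begins at the second transcribed base. That of *Rps18* spans 33955646 to 33955685 of chromosome 17 on the minus strand, and its run of 11 crosses the start. The window of *Rpl39* (37085203 to 37085242 of chromosome X, minus strand) holds 2 runs of 8, of which the one in capitals lies before the start and the other, in lower case, lies in the transcribed part. The windows without a run of this length are at 68901546 to 68901585 of chromosome 11 (plus, *Rpl26*), 152324416 to 152324455 of chromosome 4 (plus, *Rpl22*) and 99483690 to 99483729 of chromosome 7 (minus, *Rps3*). That of *Rpl22* lies wholly before the counted gene, which begins at base 152325742 in the count table. It may therefore not show the start of the RNA that was counted. Of the 30 members with a run 15 fell, with a median log2 fold change of -0.14, and of the 33 without one 10 fell, with a median of -0.10, beside 20.8% of all tested genes. The difference between members with and without a run was not tested. Annotated starts can differ by some bases from those used in these cells, and a window without a run says only that these letters are not in it. The length of 8 and the span of 20 bases were chosen with the sequences in view.

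Genes that make ribosomes did not follow the genes that make up ribosomes. Of 74 ribosome biogenesis genes, 39 rose (52.7%, beside 21.0% of all tested genes) and 3 fell (4.05%, beside 20.8%). The median was 0.15 on the log2 scale, 0.089 with library totals and 0.07 with offsets along abundance. *Grwd1*, a chaperone of a ribosomal protein, was higher in KO ASCs (0.54, adjusted p = 4.99e-05), as were *Ddx56* (0.51, adjusted p = 2.57e-05) and *Ppan* (0.51, adjusted p = 3.73e-05). *Grwd1* lay at 98.9, 89.2 and 108 CPM in WT ASCs and at 136, 150 and 145 CPM in KO ASCs. The 3 that fell were *Utp14a* (-0.28), *Bccip* (-0.17) and *Imp3* (-0.14).

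Of 15 genes of RNA polymerase I and its initiation factors, which make the ribosomal RNA precursor, 9 rose (60%, beside 21.0% of all tested genes) and 2 fell (13.3%, beside 20.8%). The median was 0.17, and 0.11 with library totals. The largest increases were those of *Taf1c* (0.50, adjusted p = 5.14e-05), *Rrn3* (0.41, adjusted p = 8.18e-05) and *Polr1a* (0.40, adjusted p = 0.000173), and the 2 that fell were *Taf1b* (-0.29) and *Twistnb* (-0.17). With the hepatocyte score as a covariate 34 biogenesis genes and 8 RNA polymerase I genes were called higher, beside 15.7% of all tested genes. Against a fold change of 1.2 these counts were 9 of 74 and 4 of 15, beside 7.07% of all tested genes.

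Other mRNAs known to carry a TOP motif had no common direction. Of 17, which include elongation factors and *Npm1*, 3 rose (*Eif3f*, 0.20, *Nap1l1*, 0.17, and *Eef1d*, 0.16) and 1 fell (*Eif3e*, -0.22), and the median was -0.00 with a sign that turned in many alternative fits. Of 77 mitochondrial ribosomal proteins, which serve the separate ribosome of that organelle, 21 rose (27.3%) and 18 fell (23.4%), near the 21.0% and 20.8% of all tested genes, with a median of 0.04. Among those called were *Mrpl44* (0.43) and *Mrps34* (0.39) upward and *Mrps10* (-0.47) and *Mrps24* (-0.42) downward.

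Of 20 genes of mTORC1 and of TOP mRNA control, 4 rose and 4 fell, 20% each way and so close to the shares of all tested genes. *Akt1s1*, an inhibitor of mTORC1, rose by 0.55 (adjusted p = 1.8e-05) and *Mlst8*, a subunit of it, by 0.38, while *Tia1*, which binds TOP mRNAs, fell by 0.47 and *Deptor*, another inhibitor, by 0.41. Of the ribosome components outside the symbol rule, *Rps3a1* (-0.17, adjusted p = 0.0247) and *Rack1* (-0.14, adjusted p = 0.0158) fell, and *Fau* (-0.03, adjusted p = 0.703) did not pass. The lists were compared by counts and medians only, and the difference between lists was not tested.

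**Figure D4:**
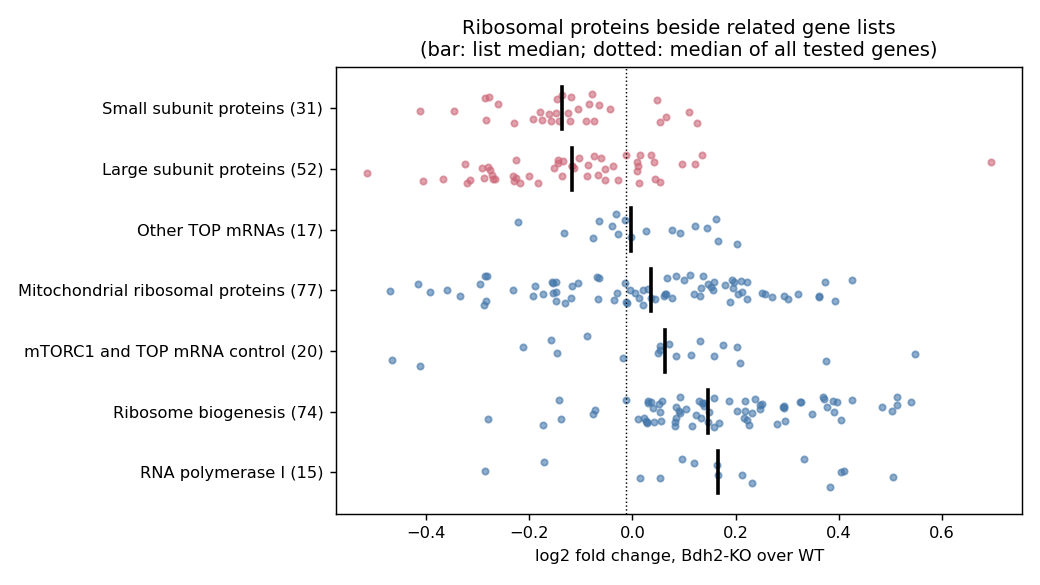
Log2 fold change, KO over WT ASCs, of each gene of the small and large subunit and of 5 related lists, with the number of tested genes in brackets. Thick bars are list medians and the dotted line is the median of all tested genes. The subunit medians (-0.14 and -0.12) lie left of it, and those of ribosome biogenesis (0.15) and RNA polymerase I (0.17) right of it.

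The samples of one genotype were not equally alike for all members. KO sample 1 lay above the mean of KO samples 2 and 3 in 31 of 31 small subunit genes and in 45 of 52 large subunit genes, with median differences of 0.10 and 0.07 on the log2 scale. The difference was larger for short coding sequences. It was 0.17 in the 28 members under 400 bases, a bound chosen with the values known, and 0.06 in the 55 others. Across the 83 genes, which share their libraries, it was correlated with log2 coding length at Pearson's r = -0.56 and Spearman's rho = -0.68. *Rps21* (0.59), *Rps28* (0.50), *Rpl38* (0.49) and *Rps29* (0.49) were among the genes with the largest differences, and so were the longer *Rpl21* (0.95) and *Rps27a* (0.52). WT sample 3 lay below the mean of WT samples 1 and 2 by a median of 0.08 in both subunits. None of the named short genes *Rps21*, *Rps28*, *Rpl38* and *Rps29* was called.

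The fold change between the genotypes was only weakly correlated with coding length (r = 0.14, rho = 0.18) or with the mean level (r = -0.07, rho = -0.05). In the 28 short members 11 fell (39.3%), with a median of -0.14, and in the others 22 of 55 (40%), with a median of -0.12, beside 20.8% of all tested genes. Of 2597 other tested genes with a listed length under 1500 bases, 253 were called higher (9.74%) and 452 lower (17.4%), with a median of -0.09. Of all tested genes 21.0% were called higher and 20.8% lower. With offsets along the listed gene length, 10 small (32.3%) and 17 large subunit genes (32.7%) were called lower, beside 20.1% of all tested genes.

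**Figure D5:**
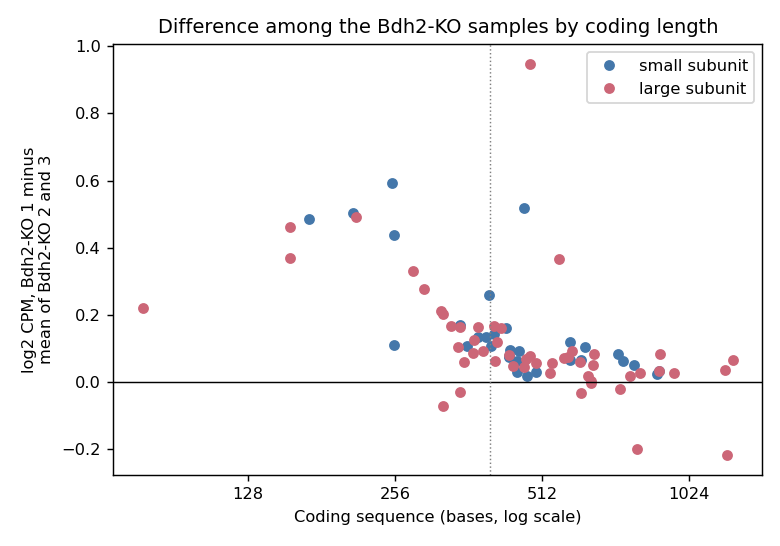
Difference in log2 CPM between KO sample 1 and the mean of KO samples 2 and 3 for each of the 83 genes, against the length of the coding sequence in bases (log scale). The dotted line marks 400 bases. Nearly all points lie above 0, and most genes with short coding sequences lie higher than the rest.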

How the data were processed

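The authors trimmed reads, mapped them to GRCm38 with HISAT2 2.0.5, counted them on genes with FeatureCounts and deposited raw counts with a length and position per gene. Strand setting and treatment of reads with several matches are not given in the sources used here. Groups came from the genotype labels. Libraries held 18927748 to 28333541 counts. The CPM worth 3 counts is a floor for counting error only, and the SE of a fold change comes from the quasi-likelihood fit and includes the spread between samples.

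Counts were tested in R 4.3.3 with edgeR 4.0.16 (TMM, filterByExpr, quasi-likelihood test, Benjamini-Hochberg adjustment over 16758 genes, threshold 0.05). Normalized CPM use TMM library sizes, and TPM were computed from counts and listed lengths. For single values of 3 against 3 samples the exact permutation test, two-sided, was used. The functions were tested on simulated counts. Alternatives were DESeq2 1.42.0 (the authors' tool), limma-voom (limma 3.58.1), a test against a fold change of 1.2, other scalings, offsets along abundance or length, other filters, a replicate block, a hepatocyte score as covariate, added pseudogene counts and each sample left out.

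Coding sequences and exon positions came from the principal transcripts of GENCODE M21, which holds all 83 members, and start windows from RefSeq. No sequence is shown for *Rps14* and *Rpl17*. Shared sequence was counted in 50-base stretches on either strand. Figures were drawn with matplotlib 3.10.9.

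Genes were named by rule: *Bdh2*; the 5 largest called changes of each subunit in each direction; paralogs and related genes; P stalk, *Rpl5*, *Rpl11* and components outside the symbol rule; the 3 highest and 3 lowest levels of each subunit; and up to 3 called genes per direction in related lists. Others, such as *Rps27a*, *Rpl24*, the remaining called members and the genes named for the spread between samples, were chosen after their values were seen. Some genes that the rule names are not reported here. The members and lists were chosen with earlier results of these data known.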

Additional observations from a re-analysis of the deposited data

How the results depend on the processing

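The called members, 34 in all, kept their direction in all 20 alternative fits. Still called were 34 with limma-voom, median-of-ratios factors, library totals, upper-quartile factors, scaling without the members, abundance offsets, a mean count of at least 50 and added pseudogene counts, 32 with DESeq2, 28 with gene length offsets and with a replicate block, 27 without a filter, 12 with the hepatocyte score and 1 against a fold change of 1.2, and 20 to 34 with 1 sample left out. The causes of the changes were not tested.

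Small subunit genes called lower were 22 with library totals, 23 with abundance offsets, 2 with the hepatocyte score and 0 against a fold change of 1.2, and 5 to 18 with 1 sample left out; 1 was called higher with DESeq2, scaling without the members, gene length offsets and no filter, and 0 to 1 with 1 sample left out. Large subunit genes called lower were 33 with abundance offsets, 10 with the hepatocyte score and 0 against a fold change of 1.2, and 14 to 24 with 1 sample left out; 2 were called higher with DESeq2, and 1 to 2 with 1 sample left out. Medians were -0.18 (large, library totals), -0.23 and -0.22 (small and large, abundance offsets), and -0.18 to -0.10 and -0.14 to -0.08 with 1 sample left out. Of all genes 1185 (7.07%) were called higher and 1272 (7.59%) lower against a fold change of 1.2.

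Exit tunnel genes called lower were 2 with the hepatocyte score and 0 against a fold change of 1.2. Ribosome biogenesis genes were called higher and lower in 9 and 0 against a fold change of 1.2; 5 were lower with library totals, 6 with abundance offsets and 1 to 4 with 1 sample left out, and the median was 0.089 with library totals, 0.12 with upper-quartile factors and 0.07 with abundance offsets. RNA polymerase I genes were 4 and 0 against a fold change of 1.2; 0 were lower with the hepatocyte score and 0 to 2 with 1 sample left out, and the median was 0.11 with library totals, 0.24 with gene length offsets, 0.22 with the hepatocyte score and 0.16 to 0.20 with 1 sample left out.

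Among the genes named here, no sign of a called gene turned. The median of other TOP mRNAs was 0.0024 with DESeq2 and median-of-ratios factors, 0.0025 with scaling without the members, 0.0256 with gene length offsets, 0.0133 without a filter and -0.0229 to 0.0496 with 1 sample left out. That of mitochondrial ribosomal proteins was -0.0216 with library totals, that of mTORC1 and TOP mRNA control -0.0278 with abundance offsets, and that of hepatocyte markers 0.002 with their own score as covariate. *Rplp0* was at -0.05 with library totals, -0.0141 with upper-quartile factors, -0.069 with abundance offsets, -0.0038 with a mean count of at least 50 and -0.0357 to 0.0364 with 1 sample left out. *Rplp2* was at -0.0137 with library totals, -0.0543 with abundance offsets, -0.0258 with the hepatocyte score and -0.0513 to 0.1074 with 1 sample left out. *Rps13* was at -0.0422 with abundance offsets and *Rps10* at -0.18 with pseudogene counts added. With gene length offsets *Rpl10* was at 0.0053, *Rps15* at 0.0431, *Rpl36* at 0.0765 and *Fau* at 0.0542. *Rpl36* was at 0.0034 without a filter and *Rpl17* at 0.1129 with the hepatocyte score. With 1 sample left out, *Rpl10* ranged from -0.0685 to 0.0142, *Rpl36* from -0.0731 to 0.043, *Fau* from -0.0498 to 0.0163, *Rpl3* from -0.0501 to 0.0092, *Rpl36al* from -0.0015 to 0.1746, *Rpl17* from -0.2753 to 0.0731 and the log2 difference of the *Rps27l* to *Rps27* ratio from -0.0989 to 0.0848.

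Deviations of same-numbered samples correlated at -0.154, 0.0995 and 0.245, and those of differently numbered samples at -0.349 to 0.312. Taken within groups of 3, these values cannot decide whether the replicate numbers pair the samples. With a replicate block, 11 small and 18 large subunit genes were called lower and 0 and 1 higher, with medians of -0.14 and -0.12, and of all genes 3235 were higher and 3217 lower. Counts of *Rpl24*, *Rps10*, *Rpl21*, *Rpl17*, *Rpl34* and *Rpl3* are uncertain, since these genes share sequence or exons with others and the treatment of such reads is not known. The same limit holds for called members. Among them, *Rpl35*, *Rpl23a* and *Rpl5* share 95.1%, 85.7% and 93.8% of their 50-base stretches with other genes.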
